A study of Mus musculus with 6 samples.

Results

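The EGF receptor family was examined in cultured mouse neural stem cells (NSCs) through 10 genes, chosen by name from the 53379 genes of the expression table. They are the receptors *Egfr*, *Erbb2*, *Erbb3* and *Erbb4*, the ligands *Nrg1*, *Hbegf*, *Tgfa* and *Btc*, and the inhibitors *Errfi1* and *Lrig1*, and each name matched 1 row. NSCs, which divide in culture and can form neurons and glia, came from the E14.5 cortex of embryos carrying the *Tbl1xr1* floxed allele on both chromosomes (*Tbl1xr1* flox/flox), whose loxP sites flank an exon of a subunit of the NCOR repressor complex. Every culture was grown with 10 ng/ml EGF and 10 ng/ml bFGF. Infection was with a lentivirus for GFP together with Cre, the recombinase that removes the floxed exon, or for GFP alone, and GFP+ cells were sorted. RNA-seq values were available for 3 libraries labelled Cre (replicates 2, 2_2 and 3) and 3 GFP libraries (replicates 1, 1_1 and 2), all of them bulk RNA from *Tbl1xr1* flox/flox cells. The embryo behind each culture is not given in the sources used here, nor is it stated whether 1 and 1_1, or 2 and 2_2, share a culture. The p-values given here therefore measure only the spread between these libraries, which may be technical, and culture of origin and Cre cannot be told apart.

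The libraries held 7510615 to 11161497 reads on genes in the GFP group and 11893230 to 14828100 in the group labelled Cre. *Tbl1xr1* itself had normalized counts of 2522, 2190 and 2721 in GFP replicates 1, 1_1 and 2, and 3774, 3463 and 2905 in Cre replicates 2, 2_2 and 3. Counted over the whole gene, its mRNA was not reduced under the Cre label (log2 fold change 0.45, limma adjusted p = 0.0600). Only 1 exon is floxed and the table holds no count by exon, so this value does not check the labels. Every direction below is that of the libraries labelled Cre relative to the GFP libraries. A normalized count is the number of reads of a gene divided by a size factor that sets the libraries to a common depth.

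The receptors of this family are tyrosine kinases at the cell surface. A ligand, made as a membrane-bound precursor and released by metalloproteases, joins receptors into pairs, and the paired receptors feed the RAS-ERK and PI3K cascades. EGFR binds EGF, TGF-alpha, betacellulin and HB-EGF. ERBB2 has no known ligand of its own and serves as a partner, ERBB3 has a weak kinase, and ERBB3 and ERBB4 bind neuregulins. In NSC culture, EGF in the medium acts as a mitogen through EGFR.

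The 300 bases around the start of *Erbb4* and of *Tgfa* are shown because these genes passed the test between the groups. The sequences are those of RefSeq on GRCm38.p6, from 250 bases before to 50 bases after a start, written 5′ to 3′ on the strand of the gene. Capitals mark the GC box GGGCGG or its reverse complement CCGCCC. For both genes RefSeq also places a start further upstream, so the window lies partly or wholly inside the gene's interval.
*Erbb4*, chr1:69108010-69108309, minus strand: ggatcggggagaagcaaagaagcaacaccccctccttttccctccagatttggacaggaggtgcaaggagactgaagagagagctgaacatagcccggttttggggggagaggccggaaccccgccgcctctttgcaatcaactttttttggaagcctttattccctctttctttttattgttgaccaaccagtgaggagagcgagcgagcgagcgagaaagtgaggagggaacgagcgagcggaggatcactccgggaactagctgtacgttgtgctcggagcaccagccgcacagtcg
*Tgfa*, chr6:86194972-86195271, plus strand: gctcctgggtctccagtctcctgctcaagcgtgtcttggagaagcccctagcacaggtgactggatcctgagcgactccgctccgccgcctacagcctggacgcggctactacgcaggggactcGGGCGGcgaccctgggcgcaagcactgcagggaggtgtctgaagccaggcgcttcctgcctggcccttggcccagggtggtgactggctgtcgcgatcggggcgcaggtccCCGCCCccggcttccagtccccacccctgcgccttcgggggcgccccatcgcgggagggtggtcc
The *Erbb4* window, with a GC content of 55.3%, held none of 6 motifs searched on both strands, namely the GC box, the TATA box TATAAA, the CCAAT box, the AP-1 site TGANTCA, the nuclear receptor site AGGTCA and the E2F site TTTCGCGC. The *Tgfa* window, with a GC content of 70.7%, held GGGCGG at 2 positions and no other motif of the 6. Of the 32851 promoters of this length in the table, 35.7% held the GC box, 13.6% the TATA box, 37.4% the CCAAT box, 7.81% the AP-1 site, 16.3% the nuclear receptor site and 0.323% the E2F site, and their median GC content was 52.7%. Letters matching a motif are a description of the window and say nothing of binding there.

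For *Egfr*, the primers with which the study quantified its mRNA by RT-qPCR are shown, since they mark a stretch of the transcript that the RNA-seq count also covers.
*Egfr* forward primer, chr11:16811622-16811641: gtgggcaaccctgagtatct
*Egfr* reverse primer, chr11:16811707-16811726: taggctcatttggtgactgc
On mm9, with the GENCODE M1 annotation, both primers match the coding part of exon 28 of 28 of the *Egfr* transcript of 10208 bases, the forward primer on the plus strand and the reverse primer as its reverse complement. They bound an amplicon of 105 bases.

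Of the 10 genes, *Erbb4* and *Tgfa* passed an adjusted p under 0.05 and were higher in the libraries labelled Cre, none was lower, 6 did not pass the test, and *Erbb3* and *Nrg1* were too low to be tested. The test was limma on log2(normalized count + 1), with Benjamini-Hochberg adjustment over the 14840 genes that averaged 10 normalized counts or more. Over all tested genes it called 9.96%, with 4.74% higher and 5.22% lower. On the recovered reads, edgeR called 9.99% (4.97% higher) and DESeq2 11.8% (5.89% higher), *Erbb4* and *Tgfa* among them. No gene of the family was lower at an unadjusted p under 0.05 either, nor at an adjusted p under 0.05 with edgeR or DESeq2. The groups did not overlap for 5 of the 8 tested genes, *Egfr*, *Erbb4*, *Tgfa*, *Btc* and *Lrig1*, each higher in the libraries labelled Cre, where 14.7% of all tested genes were higher and 15.5% lower with no overlap. The median log2 fold change of the 8 was 0.36, against -0.001 over all tested genes. *Tgfa* and *Btc* passed the filter on low counts only through the libraries labelled Cre, with GFP means under 10, so the count and the median describe the genes tested and not the family.

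**Figure D1:**
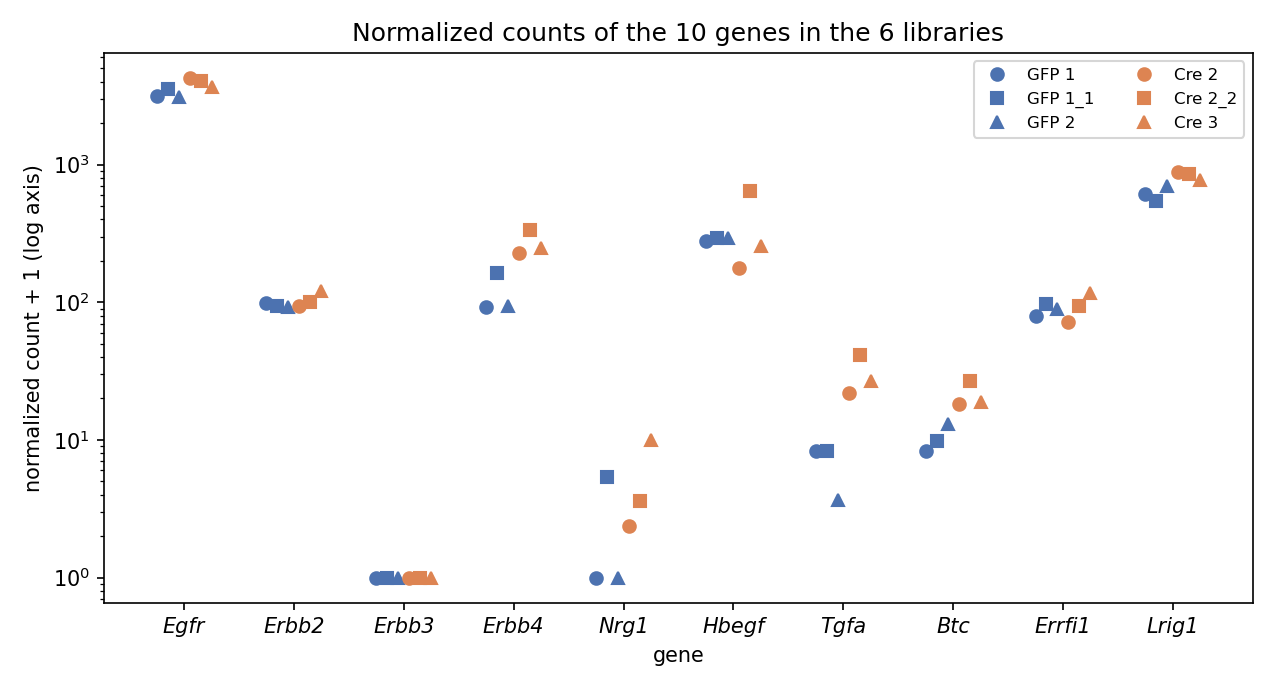
Normalized counts plus 1 on a log axis (y) for each of the 10 genes (x), with 1 point per library, GFP replicates in blue and replicates labelled Cre in orange. *Erbb4* lay between 90.9 and 162 in the GFP libraries and between 226 and 335 in those labelled Cre, and *Erbb3* was at 0 reads in all 6.

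**Figure D2:**
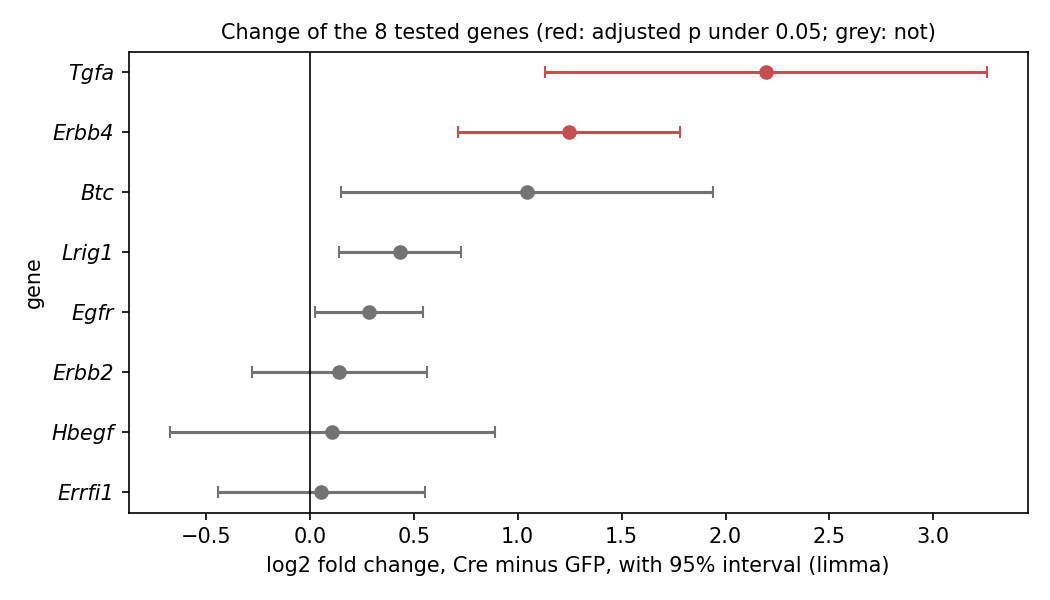
Log2 fold change, Cre minus GFP, of the 8 tested genes (x) with the 95% interval of the limma fit, where red marks an adjusted p under 0.05. The intervals of *Tgfa* (1.13 to 3.26) and *Erbb4* (0.71 to 1.78) lie furthest from 0, and those of *Erbb2*, *Hbegf* and *Errfi1* include it.

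*Erbb4*, the neuregulin receptor, had normalized counts of 90.9, 162 and 93.4 in GFP replicates 1, 1_1 and 2. In Cre replicates 2, 2_2 and 3 they were 226, 335 and 247. All 3 libraries labelled Cre stood above all GFP libraries, of which replicate 1_1 was the highest. They averaged 116 ± 40.6 in the GFP group and 269 ± 57.8 in the group labelled Cre (SD, n = 3 each), a 2.37-fold difference (95% interval 1.64 to 3.44). On the log2 scale this was 1.25 ± 0.24 (standard error), with a limma adjusted p of 0.00925. With edgeR the adjusted p was 0.010 and with DESeq2 6.87e-05, and its highest value under any alternative was 0.0561. The call was lost without GFP replicate 1 (log2 fold change 1.10), without GFP replicate 2 (1.12) and without Cre replicate 2_2 (1.08), and it held in the other 3 fits with a library left out. In bulk RNA, a higher share of cells expressing a gene and more of its RNA per cell cannot be told apart, which holds for every difference given here.

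*Egfr*, the receptor for the EGF in the medium, was the most abundant member of the family by count and per length. Its normalized counts were 3153, 3553 and 3099 in GFP replicates 1, 1_1 and 2, and 4249, 4071 and 3628 in Cre replicates 2, 2_2 and 3. The groups did not overlap, although the highest GFP library and the lowest library labelled Cre were close. The difference was 1.22-fold (95% interval 1.02 to 1.46), or 0.28 ± 0.12 (standard error) on the log2 scale, and did not pass the test (limma adjusted p = 0.158). The adjusted p was 0.167 with edgeR and 0.198 with DESeq2, and between 0.0925 and 0.395 with a library left out.

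*Erbb2*, the partner receptor without a ligand, had normalized counts of 97.3, 92.2 and 92.0 in GFP replicates 1, 1_1 and 2, and 92.8, 99.9 and 120.0 in Cre replicates 2, 2_2 and 3. The groups overlapped, with Cre replicate 3 above the rest. Its log2 difference was 0.14 (95% interval -0.28 to 0.56, limma adjusted p = 0.698), so that a change larger than 1.48-fold upwards lay outside the interval. In the annotation 9 exon bases of *Erbb2* are shared with *1810046J19Rik* on the other strand, and whether strand was used in counting is not given in the sources used here. *Erbb3*, the receptor with the weak kinase, had 0 reads in each of the 6 libraries. For 1 library taken alone, 0 reads allow a true level of up to 3 reads (counting error only), and the 6 together allow less per library.

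Scaled to the length of their exons, the receptors kept the order *Egfr*, *Erbb2*, *Erbb4* in the GFP libraries, with 289 ± 21.9, 18.0 ± 0.575 and 9.35 ± 3.29 normalized counts per kilobase (SD, n = 3). In each GFP library *Erbb4* was below *Erbb2*. In the libraries labelled Cre the same scale gave 352 ± 28.2 for *Egfr* and 21.8 ± 4.68 for *Erbb4*, with *Erbb2* from 17.8 to 23.0, and *Erbb2* and *Erbb4* overlapped. *Erbb4* was above *Erbb2* in Cre replicates 2 (18.3 against 17.8) and 2_2 (27.1 against 19.2) and below it in replicate 3.

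As a share of the length-scaled counts of the 4 receptors, which does not depend on the scaling between libraries, *Erbb4* held 2.42%, 3.81% and 2.53% in GFP replicates 1, 1_1 and 2. In Cre replicates 2, 2_2 and 3 it held 4.44%, 6.68% and 5.50%. The shares did not overlap, and the difference of 2.62 percentage points had an exact permutation p of 0.1 (two-sided), the smallest that 3 libraries against 3 can give. *Egfr* held 91.5%, 91.1% and 91.6% in the GFP libraries and 91.2%, 88.6% and 88.2% in those labelled Cre. These overlapped, at a difference of -2.03 points (exact permutation p = 0.2). Without scaling by length the *Egfr* shares did not overlap, with 93.3% to 94.4% against 90.4% to 93.0%, a difference of -2.62 points (exact permutation p = 0.1, the smallest possible). For *Erbb2* the difference was -0.59 points (exact permutation p = 0.5). Over the 7 shares tested in the receptors and the ligands, with the others given below, no p could pass 0.05.

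*Tgfa*, which encodes TGF-alpha, a ligand of EGFR, had normalized counts of 7.34, 7.31 and 2.67 in GFP replicates 1, 1_1 and 2, and 20.8, 40.5 and 26.0 in Cre replicates 2, 2_2 and 3. No library labelled Cre was as low as any GFP library, and Cre replicate 2_2 was the highest. These values rest on few reads, 8, 5 and 2 in the GFP libraries and 30, 47 and 29 in those labelled Cre. On the log2 scale the difference was 2.19 ± 0.48 (standard error) with a limma adjusted p of 0.0167, on a scale that understates the change of low genes. Scaled to depth, the 106 reads of the group labelled Cre against 15 of the GFP group gave a ratio of 4.80 (exact 95% interval 2.78 to 8.87, counting error only). The adjusted p was 0.0154 with edgeR and 0.00326 with DESeq2. The call was lost without GFP replicate 2 (log2 fold change 1.80, adjusted p = 0.0603) and without Cre replicate 2_2 (1.94, adjusted p = 0.0892), the range of the adjusted p being 0.00326 to 0.0892 under the alternatives. With a minimum mean of 50 *Tgfa* was not tested.

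*Btc*, which encodes betacellulin, a ligand of EGFR and ERBB4, had normalized counts of 7.34, 8.78 and 12.003 in GFP replicates 1, 1_1 and 2, and 17.3, 25.8 and 17.9 in Cre replicates 2, 2_2 and 3. The groups did not overlap, and Cre replicate 2_2 was again the highest. Their log2 difference of 1.04 (95% interval 0.15 to 1.94) did not pass the test (limma adjusted p = 0.134), nor did it under any alternative. The depth-scaled ratio of 75 to 23 reads was 2.21 (exact 95% interval 1.37 to 3.70, counting error only).

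*Hbegf*, which encodes HB-EGF, a ligand of EGFR and ERBB4, was the most abundant of the 4 ligands. Its normalized counts were 276, 291 and 289 in GFP replicates 1, 1_1 and 2, and 177, 645 and 255 in Cre replicates 2, 2_2 and 3. The GFP libraries lay close together, while those labelled Cre fell on both sides of them. A log2 difference of 0.11 resulted (95% interval -0.67 to 0.89, limma adjusted p = 0.883), whose sign rested on Cre replicate 2_2, without which it was -0.43 (adjusted p = 0.251). Cre replicate 2_2 was the highest of the 6 libraries for 4 of the 8 tested genes of the family, *Erbb4*, *Hbegf*, *Tgfa* and *Btc*, and for 16.7% of all tested genes. Without it neither *Erbb4* nor *Tgfa* passed.

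*Nrg1*, which encodes neuregulin 1, a ligand of ERBB3 and ERBB4, had 0, 3 and 0 reads in GFP replicates 1, 1_1 and 2, and 2, 3 and 10 in Cre replicates 2, 2_2 and 3. It was under the filter and not tested. The depth-scaled ratio of 15 to 3 reads was 3.40 (exact 95% interval 0.960 to 18.3, counting error only), and 10 of the 15 reads came from Cre replicate 3. In the annotation 100 of its exon bases are shared with *Gm17443* on the other strand.

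Among the length-scaled counts of these 4 ligands, *Hbegf* held 96.2%, 95.01% and 96.1% in GFP replicates 1, 1_1 and 2 and 86.0%, 92.9% and 87.0% in Cre replicates 2, 2_2 and 3. Its share was lower in every library labelled Cre, at a difference of -7.15 percentage points (exact permutation p = 0.1, the smallest possible), the library with the highest *Hbegf* count included. The share of *Tgfa* was 1.61%, 1.51% and 0.558% against 6.38%, 3.68% and 5.58%. That of *Tgfa* did not overlap either, with a difference of 3.99 points (exact permutation p = 0.1), which was 5.99 points without scaling by length. *Btc*, with 2.17%, 2.43% and 3.38% against 7.16%, 3.16% and 5.18%, differed by 2.504 points (exact permutation p = 0.2), and *Nrg1* by 0.65 points (exact permutation p = 0.5).

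**Figure D3:**
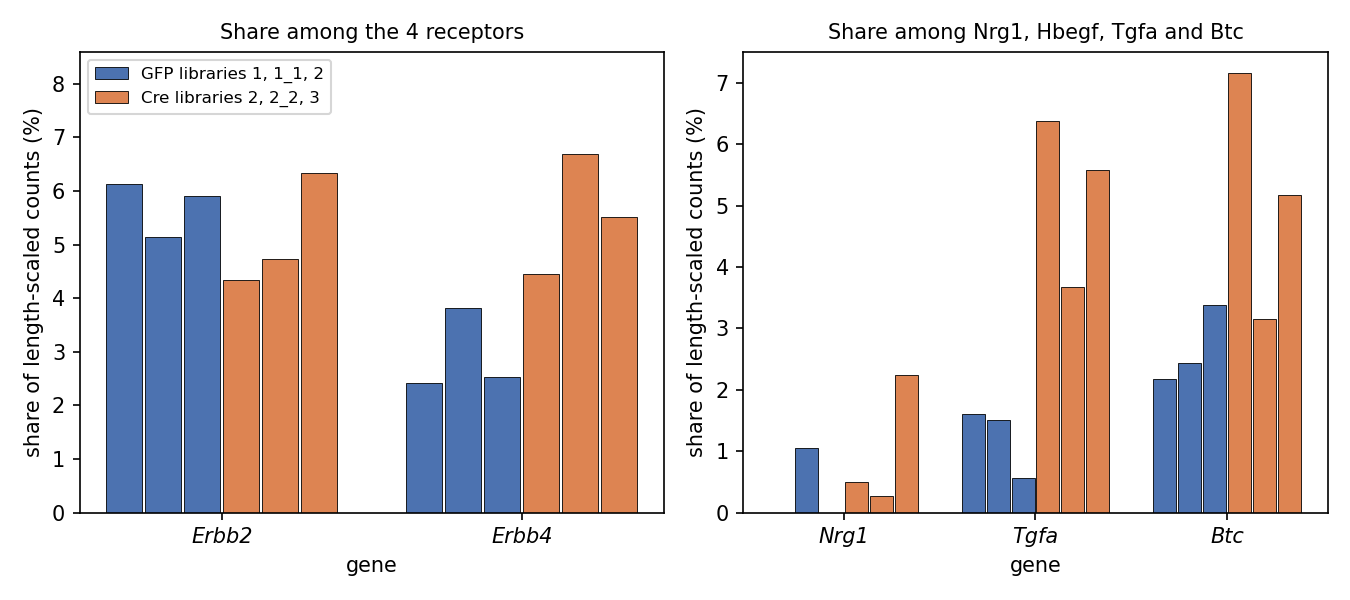
Share in percent (y) of each gene in the length-scaled counts of the 4 receptors (left) and of the 4 ligands (right), with 1 bar per library in the order GFP 1, 1_1, 2 (blue) and Cre 2, 2_2, 3 (orange). *Egfr* and *Hbegf*, which hold the rest, are not drawn, and the bars of *Erbb4* and *Tgfa* in the libraries labelled Cre all exceed those of the GFP libraries.

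*Lrig1*, a membrane protein that drives the breakdown of EGFR and other ErbB receptors, had normalized counts of 613, 541 and 701 in GFP replicates 1, 1_1 and 2, and 875, 854 and 770.0 in Cre replicates 2, 2_2 and 3. The groups did not overlap. The difference was 1.35-fold (95% interval 1.10 to 1.66), or 0.43 ± 0.13 (standard error) on the log2 scale, and its adjusted p of 0.0629 (limma) missed the threshold. It was 0.0648 with edgeR and 0.0629 with DESeq2, and the gene passed only at the looser limit of 0.1. In the annotation 120 exon bases of *Lrig1*, 2.15% of its exons, are shared with *Slc25a26* on the other strand, which had a mean normalized count of 544.

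*Errfi1*, also called MIG6, binds the EGFR kinase and inhibits it, and is itself induced by EGF signalling. Its normalized counts were 78.9, 96.5 and 88.0 in GFP replicates 1, 1_1 and 2, and 70.6, 92.1 and 116 in Cre replicates 2, 2_2 and 3. The libraries labelled Cre held both the lowest and the highest of the 6 values. Their log2 difference was 0.05 (95% interval -0.44 to 0.55, limma adjusted p = 0.910), and it turned to -0.02 without GFP replicate 1 and to -0.12 without Cre replicate 3.

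Per kilobase of exon, the ligands and inhibitors took the order *Hbegf* (120 ± 3.43), *Lrig1* (111 ± 14.4), *Errfi1* (24.5 ± 2.46), *Btc* (3.35 ± 0.854), *Tgfa* (1.53 ± 0.715) and *Nrg1* (0.454 ± 0.787) in the GFP libraries, as means of normalized counts per kilobase (SD, n = 3). *Hbegf* and *Lrig1* overlapped there, and *Btc* stood above *Tgfa*. In the libraries labelled Cre the same scale gave 151 ± 106 for *Hbegf*, 149 ± 9.92 for *Lrig1*, 25.9 ± 6.26 for *Errfi1*, 7.73 ± 2.71 for *Tgfa*, 7.28 ± 1.70 for *Btc* and 1.34 ± 1.26 for *Nrg1*. *Tgfa* and *Btc* overlapped in these libraries, as did *Hbegf* and *Lrig1*.

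**Figure D4:**
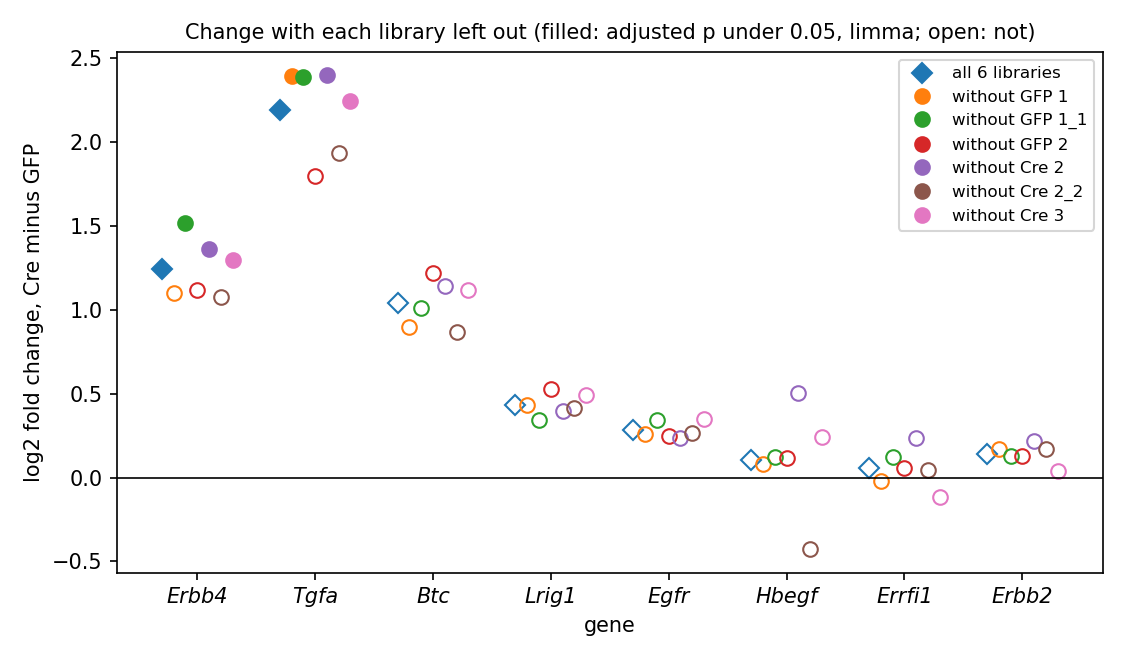
Log2 fold change, Cre minus GFP (y), of the 8 tested genes (x) with all 6 libraries (diamonds) and with each library left out (circles), where filled symbols mark an adjusted p under 0.05. *Erbb4* and *Tgfa* stay above 1 in every fit, 3 of the 6 fits for *Erbb4* and 2 of the 6 for *Tgfa* are open, and *Hbegf* falls to -0.43 without Cre replicate 2_2.

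The other genes of the pathway were read from 5 lists by role, with 59 genes listed and 55 tested. Of these 55, 2 were higher, *Pik3r1* and *Egr1*, and 1 was lower, *Ccnd1*, and 52 did not pass (limma adjusted p under 0.05, passed by 9.96% of all tested genes). On the recovered reads edgeR called 3 of the 55 (2 higher, 1 lower) and DESeq2 called 4 (3 higher, 1 lower). At an unadjusted p under 0.05 there were 11 higher and 5 lower, where 25.5% of all tested genes passed in either direction and 12.2% passed as higher. The median log2 fold change of the 55 was 0.11, against -0.001 over all tested genes. Without any of the 3 GFP libraries in turn none of the 55 passed the adjusted p, without Cre replicate 2_2 only *Ccnd1* did, and without Cre replicate 2 there were 5.

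Among the other ligands, *Egf*, *Areg*, *Nrg2* and *Nrg4* could be tested and none passed with limma, edgeR or DESeq2, nor at an unadjusted p under 0.05. Their log2 fold changes ran from -0.55 to 0.56. *Ereg*, *Epgn* and *Nrg3* were under the filter. Of the 5 tested genes of ligand shedding, the proteolytic release of ligands, none passed the adjusted p with any of these tools. At an unadjusted p under 0.05, *Rhbdf1*, an inactive rhomboid that escorts the protease ADAM17, had a log2 difference of 0.43 (limma adjusted p = 0.106) and *Adam12*, a metalloprotease, at -0.32 (adjusted p = 0.139). These genes and the others named at an unadjusted p were picked after their values were seen.

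The 13 genes of receptor turnover, such as the ubiquitin ligase *Cbl* and the endocytic adaptors, all passed the filter on counts. None passed the adjusted p with limma, edgeR or DESeq2, and 2 passed an unadjusted p under 0.05, *Eps15* (log2 fold change 0.33, adjusted p = 0.124) and *Sh3kbp1* (0.34, adjusted p = 0.192), both of which act in receptor endocytosis. The list's median was 0.17, with 10 of the 13 above 0, where 49.9% of all tested genes were above 0.

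Among 16 adaptors and first effectors, *Pik3r1*, the regulatory subunit of PI3K, was higher, with normalized counts of 3997, 3765 and 3414 in GFP replicates 1, 1_1 and 2 and 4859, 5082 and 5727 in Cre replicates 2, 2_2 and 3. The groups did not overlap. The difference on the log2 scale was 0.49 ± 0.12 (standard error, limma adjusted p = 0.0283), and the call was lost in 5 of the 6 fits with a library left out, with an adjusted p of up to 0.129. It held without Cre replicate 2 (adjusted p = 0.010). *Src* (0.54, adjusted p = 0.0640) and *Grb2* (0.42, adjusted p = 0.0662), which join the receptors to downstream signalling, came next without passing in the limma fit. At an unadjusted p under 0.05 (limma), 6 of the 16 were higher and 0 lower, *Gab1*, *Sos2* and *Pik3ca* besides those named. Over all tested genes 12.2% were higher at that limit. The median of the list was 0.14, with 11 genes above 0 and 5 below.

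Of 17 genes of ERK-induced output, *Egr1* was higher and *Ccnd1* lower. *Egr1*, an immediate early transcription factor, had normalized counts of 1290, 1201 and 1270 in GFP replicates 1, 1_1 and 2, and 4469, 3456 and 1403 in Cre replicates 2, 2_2 and 3. Cre replicate 3 stood just above the GFP libraries and the other 2 far above them. On the log2 scale the difference was 1.15 ± 0.32 (standard error, limma adjusted p = 0.0446). It was 1.65 without Cre replicate 3 (adjusted p = 7.41e-05) and 0.81 without Cre replicate 2 (adjusted p = 0.0446), and the call was lost without each of the other 4 libraries, with an adjusted p of up to 0.177. *Ccnd1*, which encodes cyclin D1, had normalized counts of 20874, 16691 and 20484 in GFP replicates 1, 1_1 and 2, and 13069.7, 14528 and 9165 in Cre replicates 2, 2_2 and 3. It was lower in every library labelled Cre, at -0.68 ± 0.18 on the log2 scale (standard error, limma adjusted p = 0.0376), and was called without Cre replicate 2 (-0.74) and without Cre replicate 2_2 (-0.81) but not without any of the other 4. With GFP 1 and 1_1 averaged, the calls of *Pik3r1* (adjusted p = 0.0796), *Egr1* (0.133) and *Ccnd1* (0.0925) were all lost, as were that of *Egr1* with Cre 2 and 2_2 averaged (0.0840) or a minimum mean of 50 (0.0511) and that of *Ccnd1* without a filter (0.0512). The feedback inhibitors on this list, the Dusp, Spry and Spred genes, did not pass in the limma fit, and the median of the list was -0.08, with 7 genes above 0 and 10 below. At an unadjusted p under 0.05 (limma), *Spry1* (0.34) and *Egr1* were higher, and *Spred2* (-0.45), *Etv5* (-0.47), *Ier3* (-0.35) and *Ccnd1* lower. Over all tested genes 25.5% passed in either direction. *Dusp6* ran from 1839 to 2609 in the GFP libraries and was 4661, 4030 and 1680 in Cre replicates 2, 2_2 and 3.

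**Figure D5:**
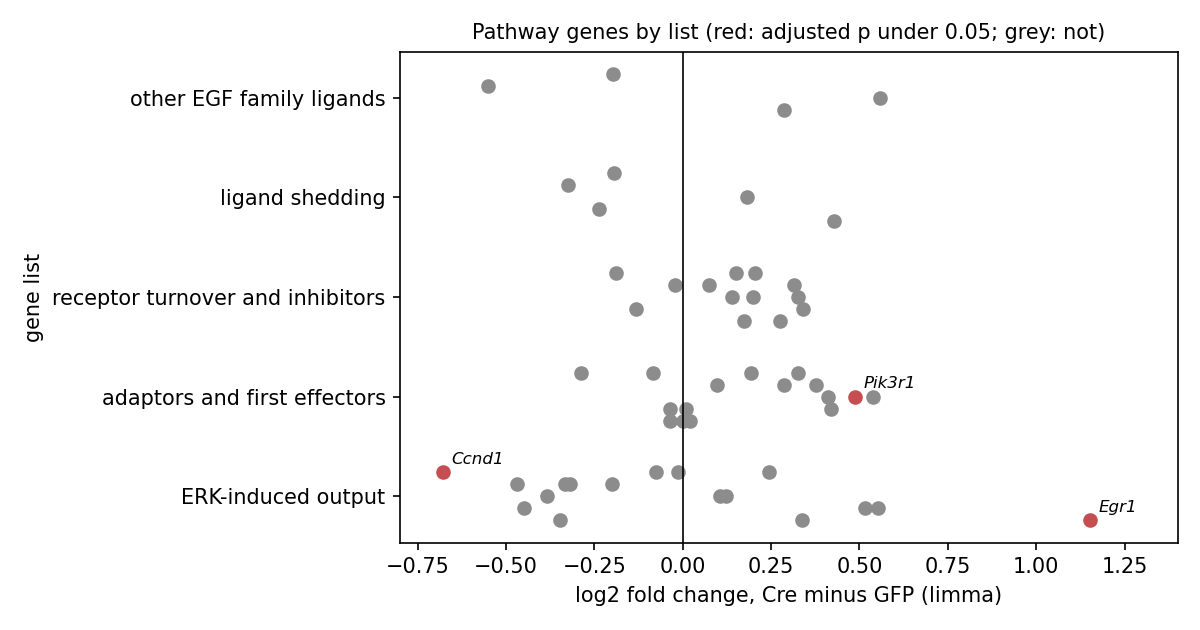
Log2 fold change, Cre minus GFP (x), of the 55 tested pathway genes in 5 lists (y), spread vertically within a list for legibility, where red marks a limma adjusted p under 0.05. Of the red points *Egr1* (1.15) and *Pik3r1* (0.49) lie above 0 and *Ccnd1* (-0.68) below, and 52 points are grey.

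Markers of cell types moved with the groups as well, and their part in the differences of *Erbb4*, *Tgfa* and the other genes was not tested. Of 10 tested astrocyte markers, 5 were higher, among them *S100b* (log2 fold change 3.10), *Aqp4* (1.64), *Fgfr3* (1.44) and *Slc1a2* (1.16), and none lower, where 4.74% of all tested genes were higher. *Aldh1l1*, a defining astrocyte enzyme, lay in the other direction at -1.65 with no overlap between the groups, without passing (limma adjusted p = 0.0650), and *Sparcl1* was at -0.17 (adjusted p = 0.432). *Aldh1l1* passed the filter on low counts only through the GFP libraries, with 44 reads there and 21 in the group labelled Cre. The call of *Aqp4* was lost in 3 of the 6 fits with a library left out, namely without GFP replicate 1 (adjusted p = 0.0834), GFP replicate 1_1 (0.0821) or Cre replicate 2_2 (0.107), and with GFP 1 and 1_1 averaged (0.0777). The summed normalized count of the 11 listed astrocyte markers ran from 15896 to 17628 in the GFP libraries and from 22153 to 23241 in those labelled Cre, while *Gfap*, the marker of mature astrocytes, did not exceed 10.3 in any library. Of 7 tested oligodendrocyte lineage markers, 3 were higher, *Pdgfra* (0.86), *Olig2* (0.71) and *Cspg4* (0.64), with summed counts of the 12 listed from 12906 to 14833 and from 17821 to 20128. *Olig1* and *Olig2* made up most of these sums. *Olig1* averaged 7872 in the GFP libraries and 8952 in those labelled Cre, without passing (limma adjusted p = 0.554). *Sox10*, with at most 13 reads in any library, *Gpr17*, *Mog*, *Mag* and *Myrf* were under the filter. The sums therefore do not measure the share of oligodendrocyte lineage cells. *Olig2* passed in all 6 fits with a library left out. *Pdgfra* passed in 4, not without GFP replicate 2 (adjusted p = 0.0703) or Cre replicate 2_2 (0.0696), and *Cspg4* in 2, those without Cre replicate 2 or 2_2, with an adjusted p of up to 0.121 in the others and of 0.0735 with GFP 1 and 1_1 averaged.

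The cultures were read on 10 neural stem cell markers, all of which had reads in every library, *Prom1* only 5 to 24. Their summed counts were 33831 to 37734 in the GFP libraries and 33561 to 35321 in those labelled Cre, and 1 of the 10 was called, *Nes*, which encodes the filament protein nestin, at a log2 fold change of -0.85 (limma adjusted p = 0.00384). Over all tested genes 4.74% were higher and 5.22% lower. *Vim*, the largest of the 10 markers, averaged 12650 in the GFP libraries and 9949 in those labelled Cre, and *Fabp7* averaged 6263 and 8218. Neither passed the limma test. The log2 fold change lay above 0 for 6 of the 10 markers and below 0 for 4. Similar sums therefore do not show that the markers were unchanged. Of 9 tested neuron markers *Elavl4* was higher (2.32) and *Gap43* lower (-0.76, a call lost without GFP replicate 2), and *Stmn2* and *Neurod6* had 0 reads in all 6 libraries. The summed neuron markers ran from 17744 to 18866 and from 15319 to 17311. *Map2* and *Gap43* made up most of these sums. *Map2* averaged 9210 in the GFP libraries and 10541 in those labelled Cre, without passing the test. *Gap43* averaged 8711 and 5196, so the lower sums reflect *Gap43*. *Dcx* had at most 10 reads and *Neurod1* at most 2 in any library. The sums therefore do not measure the share of neurons. Of the markers of GABAergic and ventral telencephalic cells, *Dlx1* was lower (-5.60), with normalized counts of 208 to 293 in the GFP libraries and 0 to 11.6 in those labelled Cre. *Dlx1* passed the filter on low counts only through the GFP libraries. *Gad1*, the other gene tested, overlapped between the groups (94.5 to 103 and 70.7 to 118, log2 fold change -0.14, limma adjusted p = 0.747), *Lhx6* and *Slc32a1* had 0 reads, and the summed counts of the 10 listed were 319 to 411 and 86.0 to 136.

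Microglia markers summed to 164 to 206 in the GFP libraries and 168 to 274 in those labelled Cre, with *Tmem119* at 0, and endothelial and mesenchymal markers to 26.7 to 40.4 and 11.8 to 34.0, with *Cdh5*, *Cldn5*, *Col1a2* and *Pdgfrb* at 0. For these last lists 1 gene each could be tested, and neither passed with limma, edgeR or DESeq2. At an unadjusted p under 0.05 there was no microglia marker and 1 endothelial marker, *Kdr* (log2 fold change -1.34, adjusted p = 0.0677). *Kdr* passed the filter on low counts only through the GFP libraries, with 65 reads there and 32 in the group labelled Cre.

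The genes whose log2 values over the 6 libraries were most like those of *Erbb4*, among 11134 tested genes with a mean of at least 50, were *Bmpr2* (Pearson r = 0.989), *Sez6l* (0.985) and *Bhlhe41* (0.985). For *Tgfa* they were *Slc12a2* (0.998), *Lacc1* (0.996) and *Garem1* (0.993), among 11135. These correlations are descriptions over 6 points that share the split into groups, and no p is given. Of the 6 genes, *Sez6l* passed the test between the groups (log2 fold change 1.65, limma adjusted p = 0.00179). *Sez6l* was highest in Cre replicate 2_2 (326) and, among the GFP libraries, in replicate 1_1 (129 against 71.6 and 73.4). It was picked for its likeness to *Erbb4* over these same libraries. The order it shares with *Erbb4* and its call are therefore no separate evidence of a link.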

How the data were processed

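RNA of sorted NSCs was sequenced as 6 TruSeq RNA v2 libraries. The labels name STAR 2.7 with mm10, while the methods name TopHat with mm9 and mm10, and the read counter, strand setting and annotation are not given in the sources used here. The values the authors deposited are DESeq2-normalized counts, a signal of reads per gene divided by 1 size factor per library. From the value of 1 read, 100% of values came out whole to within 0.01 read. Columns of the authors' own comparison (log2 fold changes with standard errors, p-values, and a score that is the test statistic) were also deposited and not used. Of 53379 genes, 873 have no name and 1 lacked a value and was left out.

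Genes averaging 10 normalized counts or more were tested with limma 3.58.1 in R 4.3.3 (lmFit, eBayes with trend) on log2(normalized count + 1), with a threshold of 0.05. Alternatives were edgeR 4.0.16 and DESeq2 1.42.0 on recovered reads, pseudocounts of 0.5 and 5, no filter, a mean of at least 50, TMM or total count scaling, averaging GFP 1 and 1_1 or Cre 2 and 2_2, an adjusted p under 0.1, and leaving out each library. Fits were tested on simulated data. Shares used exact permutation tests (scipy 1.17.1). Exon lengths are from GENCODE M1 by gene identifier. Figures used matplotlib 3.10.9. The members and gene lists were chosen with earlier results of these data known. Named from each list were genes past the threshold and defining markers at 0. Others, among them *Map2*, *Dcx* and *Neurod1*, were named after their values were seen. The values of 1 marker gene are not reported here.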

Additional observations from a re-analysis of the deposited data

How the results depend on the processing

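Over all genes 1478 were called, 660 with GFP 1 and 1_1 averaged, 2380 at an adjusted p under 0.1, and 558 (without GFP replicate 1) to 2396 (without Cre replicate 2) with a library left out. Of the EGF family, 2 genes were called, *Erbb4* and *Tgfa*, 1 with a minimum mean of 50 (*Erbb4*), and 0 to 2 with a library left out, 0 without GFP replicate 2 or Cre replicate 2_2. In those 2 fits both genes kept log2 fold changes above 1. Pathway genes called numbered 3, then 4 with DESeq2, 0 with GFP 1 and 1_1 averaged, 5 at an adjusted p under 0.1, and 0 to 5 with a library left out. The *Tgfa* share difference was 5.99 points without scaling by length. With a library left out the log2 fold change of *Hbegf* ran from -0.43 (without Cre replicate 2_2) to 0.51 (without Cre replicate 2), and that of *Errfi1* from -0.12 (without Cre replicate 3) to 0.23 (without Cre replicate 2), with -0.02 without GFP replicate 1, and the cause was not tested. Under the other alternatives each tested member kept its direction. Scaling by TMM or by total count moved the median of all genes by 0.001 and 0.006 on the log2 scale. No paired analysis was possible because the groups share only 1 replicate number. The GFP libraries were shallower, and *Tgfa*, *Btc* and *Nrg1* rest there on 15, 23 and 3 reads.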

Other observations

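*Csf1r*, named after its values were seen, encodes a receptor of microglia and had normalized counts of 201, 154 and 195 in GFP replicates 1, 1_1 and 2 and 162, 264 and 239 in Cre replicates 2, 2_2 and 3. The other microglia markers listed were near or at 0, with *Itgam* and *Aif1* at no more than 1.46 in any library. The log2 fold change of *Csf1r* was 0.25 (limma adjusted p = 0.483), so no difference between the groups was found at this depth.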
